A study of Mus musculus with 21 samples.

Results

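The 7 genes described here encode proteins that hold back cell death. They are Bcl2, Bcl2l1 and Bcl2a1d of the BCL-2 family, Birc2 and Birc3 of the inhibitor of apoptosis family, the death receptor inhibitor Cflar, and the kinase Pim1. They were chosen by name, and their probe sets were taken from the gene symbols in the authors' 4 tables of changed genes. All 7 were found, with 1 probe set each, among the 2121 named probe sets and the 28921 probe sets tested in all. The tables list only genes that the authors called changed in at least 1 comparison of these arrays, so the tests below are not independent of that choice. Cflar was listed for the knockout, Bcl2l1, Pim1 and Birc2 for positive selection, and Bcl2, Bcl2a1d and Birc3 for negative selection. The Birc2 probe set carries the file symbol C330006D17Rik, a RefSeq synonym of Birc2, and whether it reads the coding transcript of Birc2 is not settled by the files. The Bcl2a1d probe set may also read the near-identical copies Bcl2a1a, Bcl2a1b and Bcl2a1c, and which of these transcripts its values measure is not settled by the files.

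Expression was read from 21 Affymetrix Mouse Gene 1.0 ST arrays, 1 for each sample of RNA. The cells were thymocytes sorted as positive for CD4 and CD8, the stage at which T cell receptors are selected. All mice were C57 Bl/6 and 3 to 6 weeks old. OT-2 mice carry a transgenic T cell receptor. The OT-2 deltaP peptide group (3 arrays) carried the OT-2 receptor and a transgene for a mutant of the histone deacetylase HDAC7 called deltaP, and received the receptor's agonist peptide by intraperitoneal injection 3 hours before harvest. The genotype label of these arrays names the OT-2 receptor alone, and the title and source name give the deltaP transgene. The OT-2 peptide group (3 arrays) carried the OT-2 receptor and received the same peptide, and the OT-2 group (3 arrays) carried the receptor and received no treatment. The remaining untreated groups were the HDAC7 knockout (3 arrays), the HDAC7-VP16 transgenic (3 arrays), in which HDAC7 is fused to the transcription-activating part of a viral protein, and wild type (6 arrays, numbered 1 to 6). The labels do not name the promoter of either transgene or the way the knockout was made. In the design text the samples are given as biological replicates.

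As background, Bcl2, BCL-XL (the product of Bcl2l1) and A1 (the product of Bcl2a1d) sit at mitochondria and neutralise pro-apoptotic relatives such as Bim. Double-positive thymocytes depend on BCL-XL for survival, while Bcl2 is known to be more abundant in mature thymocytes. The proteins of Birc2 and Birc3 are ubiquitin ligases of tumour necrosis factor receptor complexes, and c-FLIP, from Cflar, blocks caspase activation at death receptors. Pim1 is a kinase induced by cytokine signals. Strong receptor stimulation by an agonist peptide is the usual model of negative selection, in which double-positive cells die.

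The deposited log2 RMA values were read as 4 sets of columns, which differ in scale or in the number of decimals given. The first held OT-2 peptide, knockout and wild-type arrays 1 to 3, the second VP16 and wild-type arrays 4 to 6, the third OT-2, and the fourth OT-2 deltaP peptide. The OT-2 medians (6.17 to 6.21) lay within those of the first set (6.14 to 6.26), and OT-2 values carry 6 decimals against 3. Whether OT-2 and the first set were normalized apart is not settled by these values. Comparisons within a set were OT-2 peptide and knockout, each against wild-type arrays 1 to 3, and VP16 against wild-type arrays 4 to 6. In every other comparison the set and the group cannot be told apart. Arrays of a group correlated between 0.987 and 0.997 over the probe sets tested. Hdac7 itself measured 10.94 to 10.98 in the knockout and 11.01 to 11.48 in wild-type arrays 1 to 3, a log2 difference of -0.34 with a limma adjusted p of 0.664. The labels do not say which part of the gene was deleted, so this value does not check the genotype. Hdac7 rose by 0.44 in VP16 over wild-type arrays 4 to 6 (adjusted p 0.0353). The double-positive markers Cd4, Cd8b1, Rag1, Rag2 and Ptcra, the 5 named of 9 listed, averaged between 10.04 and 11.18 on the log2 scale over all groups.

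**Figure D1:**
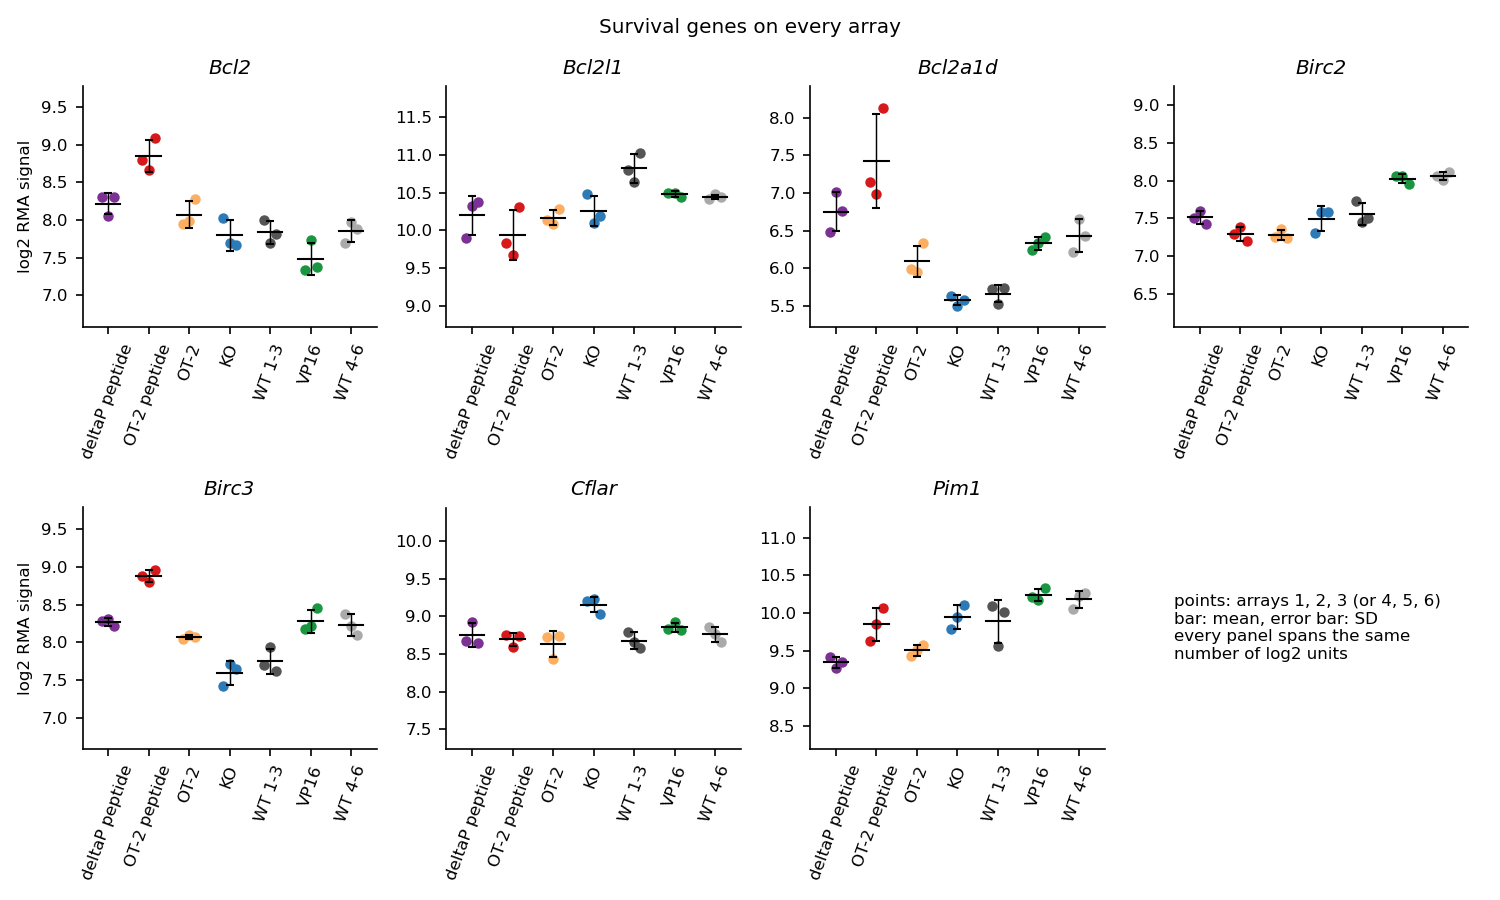
Log2 RMA signal (y axis) of the 7 survival genes on every array, by group (x axis), with the mean as a bar and the SD as error bar. Bcl2, Bcl2a1d and Birc3 were higher on all 3 OT-2 peptide arrays than on any array of wild type 1 to 3 or OT-2. Only groups of one set of columns were taken to share a scale: OT-2 peptide, KO and WT 1-3, or VP16 and WT 4-6.

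Within the first set of columns, Bcl2, Bcl2a1d and Birc3 were higher and Bcl2l1 was lower in OT-2 cells with agonist peptide than in wild type. In OT-2 peptide against wild-type arrays 1 to 3, 3 of the 7 genes rose and 1 fell, where 3.49% of all probe sets rose and 2.28% fell. The authors had listed the 3 that rose for a change on these same peptide arrays, so they are not an unselected set. OT-2 peptide and wild type differ in the OT-2 receptor as well as in the peptide. Against the same wild-type arrays, OT-2 without peptide, from another set of columns, already differed by -0.66 for Bcl2l1. It also differed by 0.43 for Bcl2a1d, 0.32 for Birc3 and 0.23 for Bcl2. Bcl2a1d measured 7.15, 6.99 and 8.13 in OT-2 peptide, against 5.73, 5.53 and 5.74 in wild type. The wild-type values lay below the array medians of this set (6.14 to 6.26), so the comparison starts from a dim signal. In the fits of the knockout and of OT-2 against wild type, Bcl2a1d was among the dim probe sets left out. The groups did not overlap, and OT-2 peptide array 3 lay well above the other peptide arrays. The rise was 1.76 ± 0.27 on the log2 scale (SE, 3.38-fold, limma adjusted p 0.0123, n = 3 each). It did not pass without wild-type array 3, where the adjusted p was 0.0533. In these bulk samples, a change in RNA per cell and a change in the share of cells that hold it cannot be told apart.

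Bcl2 measured 8.80, 8.67 and 9.08 in OT-2 peptide, against 8.0, 7.69 and 7.81 in wild-type arrays 1 to 3. Every peptide array lay above every wild-type array, and the rise was 1.01 ± 0.14 (2.02-fold, limma adjusted p 0.00866). Bcl2l1 moved the other way: it measured 9.83, 9.67 and 10.31 in OT-2 peptide, against 10.80, 10.64 and 11.03 in wild type. All 3 peptide arrays lay below every wild-type array. The fall was -0.89 ± 0.18 (0.541-fold, limma adjusted p 0.0286), and it passed in 2 of 6 fits with an array omitted. Leaving out OT-2 peptide array 1 or 2, or wild-type array 1 or 3, ended the call, with adjusted p of 0.115, 0.101, 0.0707 and 0.104 in that order.

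Birc3, the ligase also known as cIAP2, measured 8.87, 8.80 and 8.96 in OT-2 peptide, against 7.69, 7.94 and 7.61 in wild-type arrays 1 to 3. The peptide arrays lay within a narrow band well above wild type, and the rise was 1.13 ± 0.12 (2.19-fold, limma adjusted p 0.00279). Birc3 and Bcl2 passed with any 1 of the 6 arrays omitted. Birc2, the paralogue next to Birc3 on chromosome 9, measured 7.29, 7.39 and 7.20 in OT-2 peptide, against 7.73, 7.45 and 7.50 in wild type. Its arrays did not overlap, but the difference of -0.27 did not pass (95% confidence interval -0.52 to -0.01, limma adjusted p 0.212). Cflar and Pim1 did not pass either: the intervals of their differences ran between -0.22 and 0.26 for Cflar, and between -0.43 and 0.35 for Pim1. Cflar measured 8.75, 8.59 and 8.74 in OT-2 peptide, against 8.79, 8.67 and 8.57 in wild type, and Pim1 measured 9.62, 9.86 and 10.07 in OT-2 peptide, against 10.09, 9.56 and 10.01 in wild type.

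**Figure D2:**
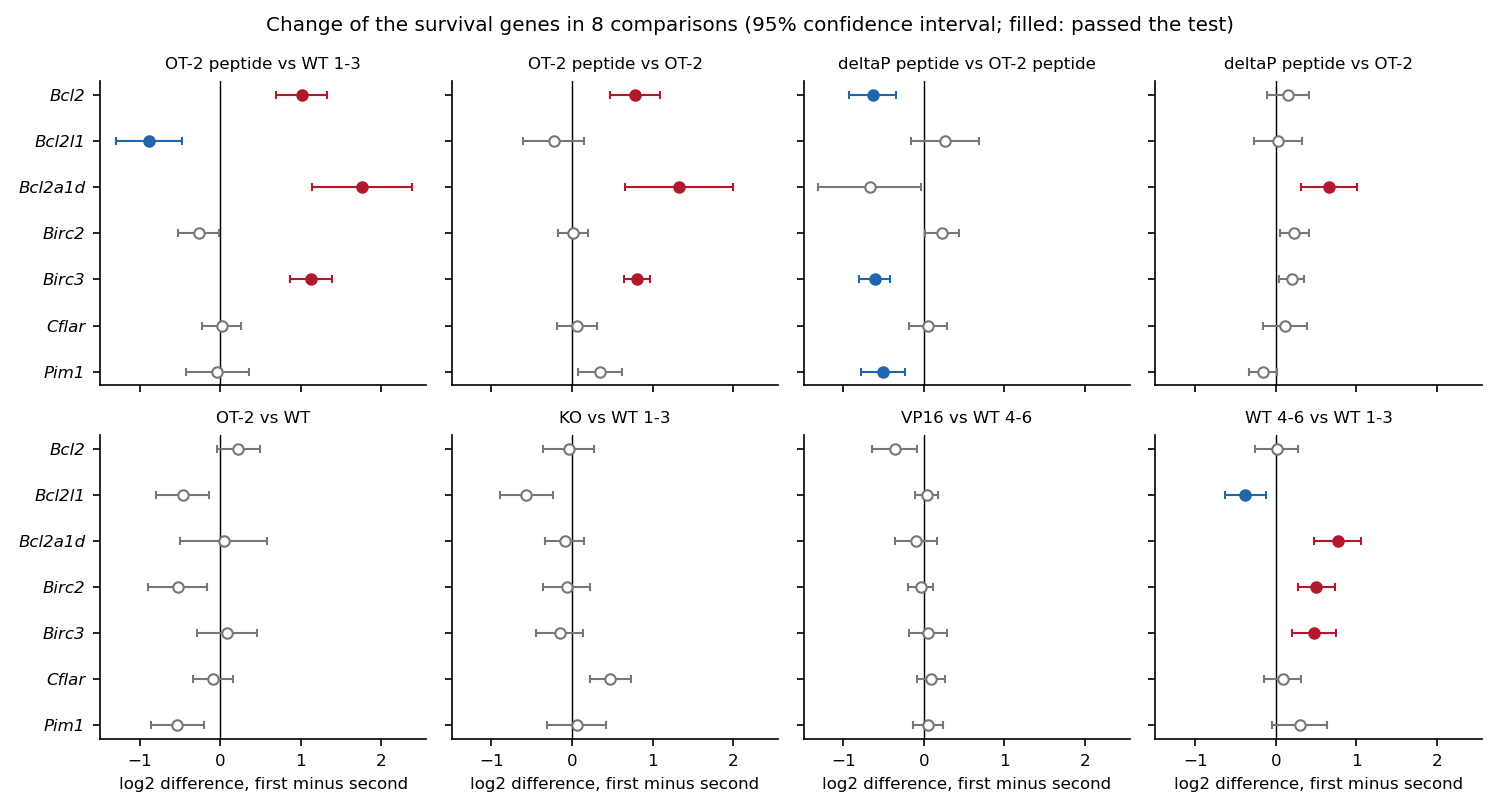
Log2 difference of each survival gene (x axis, first group minus second, with its 95% confidence interval) in 8 comparisons. Filled points passed the limma test, red for a rise and blue for a fall. Bcl2, Bcl2a1d and Birc3 rose in both peptide comparisons, and no gene passed in KO, VP16 or OT-2 against wild type.

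The bases upstream of the start are shown for the 3 genes that rose in OT-2 peptide against wild-type arrays 1 to 3. They come from RefSeq on GRCm38.p6 and run 5′ to 3′ on the strand of the gene, from chromosome 9 (minus strand, chr9:88731851-88732100) for Bcl2a1d, chromosome 9 (minus strand, chr9:7873206-7873420) for Birc3 and chromosome 1 (minus strand, chr1:106714291-106714540) for Bcl2. Capitals mark matches to the motifs searched on both strands: AP-1 (TGANTCA), EGR (GCGNGGGCG), NBRE (AAAGGTCA), STAT (TTCNNNGAA), RUNX (TGTGGT), CRE (TGACGTCA), and the consensus motifs of NF-kB and MEF2.
Bcl2a1d: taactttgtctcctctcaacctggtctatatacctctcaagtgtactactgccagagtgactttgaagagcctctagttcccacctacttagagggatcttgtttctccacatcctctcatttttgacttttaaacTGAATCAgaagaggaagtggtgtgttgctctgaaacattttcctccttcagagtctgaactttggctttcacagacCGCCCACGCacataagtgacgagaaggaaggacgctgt
Birc3: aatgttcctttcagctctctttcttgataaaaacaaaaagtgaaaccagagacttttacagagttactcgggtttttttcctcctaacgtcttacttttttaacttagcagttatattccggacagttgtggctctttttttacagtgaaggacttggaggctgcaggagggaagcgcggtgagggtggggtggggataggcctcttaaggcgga
Bcl2: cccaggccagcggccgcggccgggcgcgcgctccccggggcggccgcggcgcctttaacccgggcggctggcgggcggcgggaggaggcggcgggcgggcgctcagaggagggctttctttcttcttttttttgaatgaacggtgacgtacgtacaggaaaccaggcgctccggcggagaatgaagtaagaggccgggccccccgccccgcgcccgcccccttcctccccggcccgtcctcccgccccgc
The Bcl2a1d window holds an AP-1 match 114 bases upstream of the start and an EGR match 38 bases upstream. An AP-1 match stands in 6.75% of all 32851 windows of this length, an EGR match in 4.70%, and an NF-kB match in 3.90%. Of the other motifs, MEF2 matches stand in 2.92% of windows, NBRE in 1.34%, STAT in 7.02%, RUNX in 14.045% and CRE in 1.55%. Neither the Birc3 nor the Bcl2 window holds any of these letters. Shared regulation of these genes was not tested. The first 250 bases upstream of Bcl2 are 74.8% G and C with 36 CpG pairs, against a median of 52.4% and 6 pairs over all windows. The Bcl2a1d window is 93.0% identical to that of Bcl2a1a. For Birc3, 35 bases that lie inside its annotated gene span were left off. All 7 genes had at least 1 window, 11 in all. Among the other 4 genes, a Bcl2l1 start has an NF-kB match 242 bases upstream, another Bcl2l1 start a MEF2 match 238 bases upstream, and a Birc2 start a CRE match 35 bases upstream.

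Against OT-2 cells without peptide, Bcl2, Bcl2a1d and Birc3, 3 of the 7 genes, rose, where 9.35% of all probe sets rose. The authors had called these 3 genes changed in this same comparison, so that they passed was largely fixed in advance. The share over all probe sets is no like-for-like reference for them. OT-2 peptide and OT-2 lie in different sets of columns, so the peptide and the set cannot be told apart in this comparison. It shares its peptide arrays with the one above. Bcl2 measured 8.80, 8.67 and 9.08 in OT-2 peptide, against 7.95, 7.98 and 8.27 in OT-2, a rise of 0.78 ± 0.13 (limma adjusted p 0.0136). Birc3 measured 8.87, 8.80 and 8.96 in OT-2 peptide, against 8.04, 8.10 and 8.07 in OT-2, a rise of 0.81 ± 0.07 (limma adjusted p 0.00487). Both groups were tight, and no array of one lay near the other. Bcl2a1d measured 7.15, 6.99 and 8.13 in OT-2 peptide, against 5.99, 5.96 and 6.33 in OT-2, a rise of 1.33 ± 0.29 (limma adjusted p 0.0235). With each of the 6 arrays omitted in turn, Birc3 passed in 6 fits, Bcl2 in 4 and Bcl2a1d in 2. The Bcl2 call ended without OT-2 array 1 (0.0622) or 2 (0.052), and the Bcl2a1d call without OT-2 peptide array 1 (0.0588) or OT-2 array 1 (0.0865), 2 (0.0759) or 3 (0.0536).

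Pim1 measured 9.62, 9.86 and 10.07 in OT-2 peptide, against 9.43, 9.51 and 9.57 in OT-2. The arrays did not overlap, and the difference of 0.35 ± 0.12 did not pass (limma adjusted p 0.0762), but it did after quantile normalization of the 6 arrays (0.45, adjusted p 0.0406) and without OT-2 peptide array 1 (0.0475). Bcl2l1, which had fallen against wild type, differed by -0.23 from OT-2 with an interval of -0.61 to 0.15 (limma adjusted p 0.336), and passed without OT-2 peptide array 3 (-0.42, limma adjusted p 0.0388). Cflar and the probe set matched to Birc2 differed by 0.06 and 0.01, and neither passed. In the authors' deposited table of folds for negative selection, the folds were 1.81 for Bcl2, 2.50 for Bcl2a1d and 1.95 for Birc3, with q values of 0.528%, 0.528% and 0%. On the log2 scale these were 0.86, 1.32 and 0.96, so those of Bcl2 and Birc3 do not match the differences tested here. For Bcl2l1 the authors' fold was 0.994, with a q value of 75.4%. The authors' knockout and VP16 folds did match the differences here, and the reason was not tested. For Pim1 the authors' deposited table gave 1.35 with a q value of 7.12%.

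The marker lists of other cell types overlapped between OT-2 peptide and OT-2, and most stood above wild-type arrays 1 to 3 in both. The double-positive markers averaged 10.20 to 10.34 in OT-2 peptide, against 10.59 to 10.79 in wild-type arrays 1 to 3 and 10.69 to 10.87 in OT-2. These markers did not all move alike. Against wild-type arrays 1 to 3, Rag1 (-0.84), Cd4 (-0.68) and Cd8b1 (-0.48) fell, Rag2 (-0.63) did not pass and Ptcra (0.56) rose. Against OT-2 only Ptcra passed, with a difference of -1.01. The mature single-positive markers (4 named of 7: Ccr4, Ccr7, Itgb7 and Ms4a4b) averaged 8.33 to 8.77 in OT-2 peptide, 8.51 to 8.74 in OT-2 and 7.01 to 7.20 in wild-type arrays 1 to 3. Double-negative markers (4 of 5: Dtx1, Hes1, Notch3 and Il2ra, which the cytokine list below also holds) averaged 8.18 to 8.63 in OT-2 peptide, 8.43 to 8.81 in OT-2 and 6.80 to 6.94 in wild type. B cell markers (2 of 6, Blk and Cd79b) averaged 7.48 to 8.23, 7.58 to 7.79 and 7.22 to 7.33 in the same order, and myeloid markers (2 of 10, Itgam and Lyn) 6.44 to 7.03, 6.64 to 6.85 and 6.03 to 6.29. Against OT-2 only the double-positive list stood apart without overlap. The B cell pair split there: Cd79b fell (-0.54), and Blk (0.67) did not pass. Against wild-type arrays 1 to 3, Lyn (1.115) rose, and Itgam (-0.05), Blk (0.74) and Cd79b (0.23) did not pass. The one natural killer marker named of 6, Gzma, measured 7.95 to 9.11 in OT-2 peptide, 8.50 to 8.74 in OT-2 and 7.35 to 8.11 in wild type. The part of these markers in the results was not tested.

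Bcl2, Birc3 and Pim1 were lower in peptide-injected OT-2 cells with the deltaP transgene than in those without it. In OT-2 deltaP peptide against OT-2 peptide, 3 of the 7 genes fell and none rose, where 12.9% of all probe sets fell. The deposited values of these groups come from different sets, and the median difference over all probe sets was -0.10 as deposited and 0.09 after centring each array. Of all calls, 612 were rises and 3736 falls in these values, 442 and 404 after quantile normalization, and 3634 and 1016 after centring. The transgene and the set of columns cannot be told apart, and the OT-2 peptide arrays are those of the comparisons above. The authors had listed Bcl2 and Birc3 for a change on those arrays, so their falls here are not independent of that listing. The share over all probe sets is no like-for-like reference for these genes. Birc3 measured 8.28, 8.31 and 8.21 in OT-2 deltaP peptide, against 8.87, 8.80 and 8.96 in OT-2 peptide. Each group was tight and the groups did not overlap, with a fall of -0.61 ± 0.08 (limma adjusted p 0.00783), the one of the 3 that passed with any of the 6 arrays omitted.

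Bcl2 measured 8.30, 8.05 and 8.30 in OT-2 deltaP peptide, against 8.80, 8.67 and 9.08 in OT-2 peptide, a fall of -0.63 ± 0.13 (limma adjusted p 0.0194). The call ended without OT-2 deltaP peptide array 2 (0.0662) or 3 (0.0564) or OT-2 peptide array 1 (0.0517). Pim1 measured 9.41, 9.27 and 9.35 in OT-2 deltaP peptide, against 9.62, 9.86 and 10.07 in OT-2 peptide, a fall of -0.51 ± 0.12 (limma adjusted p 0.0293). It passed without OT-2 peptide array 1 (0.0326), but in none of the other 5 fits without an array (0.0507 to 0.0942), and not after centring the arrays, where the difference was -0.31 with an adjusted p of 0.102, nor with dim probe sets left out (0.0524). Neither gene's groups overlapped. Bcl2a1d measured 6.49, 7.01 and 6.76 in OT-2 deltaP peptide, against 7.15, 6.99 and 8.13 in OT-2 peptide. These groups overlapped at 1 array each, and the difference of -0.67 had an interval of -1.31 to -0.03 and a limma adjusted p of 0.129.

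Bcl2l1 (9.90, 10.32 and 10.37 in OT-2 deltaP peptide, against 9.83, 9.67 and 10.31 in OT-2 peptide) and Cflar (8.67, 8.93 and 8.64, against 8.75, 8.59 and 8.74) overlapped and did not pass. The probe set matched to Birc2 measured 7.51, 7.60 and 7.43 in OT-2 deltaP peptide, against 7.29, 7.39 and 7.20 in OT-2 peptide. Its groups did not overlap, and its difference of 0.22 did not pass (limma adjusted p 0.127), but after centring it was 0.42 with an adjusted p of 0.0284. Against OT-2 without peptide, 1 of the 7 genes rose in OT-2 deltaP peptide, where 3.52% of all probe sets rose. That was Bcl2a1d, with a rise of 0.66 ± 0.15 (limma adjusted p 0.0267) from values that did not overlap. The call ended without OT-2 deltaP peptide array 2 (0.0776) or 3 (0.0836) or OT-2 array 1 (0.0848) or 2 (0.0852). The differences for Bcl2 and Birc3, 0.15 (interval -0.11 to 0.41) and 0.20 (0.04 to 0.35), did not pass there. Birc2 and Birc3 passed there after quantile normalization (0.34 and 0.27, adjusted p 0.036 and 0.0448) and after centring (0.37 and 0.33, adjusted p 0.031 and 0.0288), and Birc2 with dim probe sets left out (0.0475).

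Most marker lists of other cells lay lower in OT-2 deltaP peptide than in OT-2 peptide, without overlap. The mature single-positive list averaged 7.95 to 8.03 in OT-2 deltaP peptide, against 8.33 to 8.77 in OT-2 peptide, the double-negative list 7.39 to 8.0, against 8.18 to 8.63, the B cell list 7.18 to 7.31, against 7.48 to 8.23, and the myeloid list 6.09 to 6.38, against 6.44 to 7.03. By gene, 2 of 4 mature single-positive, 2 of 4 double-negative, 1 of 2 myeloid and 0 of 2 B cell markers fell. The double-positive list averaged 10.37 to 10.66 in OT-2 deltaP peptide, against 10.20 to 10.34 in OT-2 peptide, and Gzma 7.70 to 8.04, against 7.95 to 9.11. Of the 5 double-positive markers 1 rose and 4 did not pass. The part of these markers, and of the sets, in the falls was not tested.

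**Figure D3:**
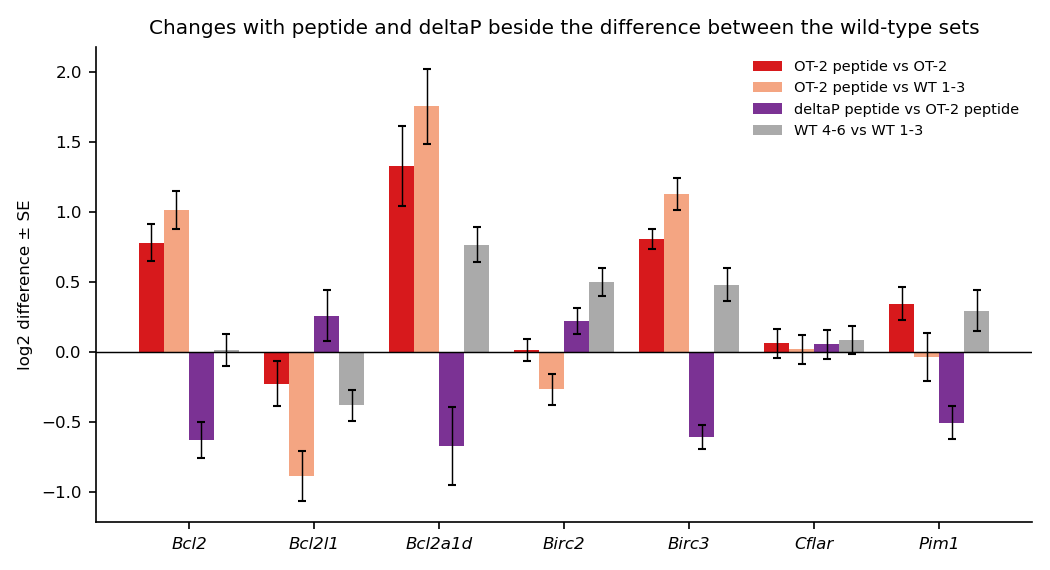
Log2 difference (y axis, mean ± SE) of the 7 survival genes in 3 comparisons with peptide, beside the difference between the wild-type sets of columns, which carry the same label. Bcl2 differed by 0.01 between the wild-type sets, and Bcl2a1d by 0.77.

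How far 2 sets of columns can differ for the same label was measured on wild type. In wild-type arrays 4 to 6 against wild-type arrays 1 to 3, 3 of the 7 genes rose and 1 fell, where 26.3% of all probe sets rose and 30.7% fell. Bcl2a1d rose by 0.77 ± 0.13 (limma adjusted p 0.00162), Birc2 by 0.50 ± 0.10 (0.00362) and Birc3 by 0.48 ± 0.12 (0.00954), and Bcl2l1 fell by 0.38 on the log2 scale (0.0187). Birc3 did not pass after quantile normalization (0.29, adjusted p 0.119), and Pim1 passed after centring (0.47, adjusted p 0.0213). The fall of Bcl2l1 did not pass after centring (-0.21, adjusted p 0.128) or without array 4 (0.0614), 5 (0.050) or 6 (0.0555). Bcl2 differed by 0.01, with an interval of -0.25 to 0.28. After quantile normalization the differences of Bcl2, Cflar and Pim1 turned to -0.16, -0.21 and -0.12. Markers differed between the wild-type sets too. The mature single-positive list averaged 7.77 to 8.11 in arrays 4 to 6, against 7.01 to 7.20 in arrays 1 to 3. The double-positive list averaged 11.08 to 11.18, against 10.59 to 10.79, and Gzma measured 8.79 to 8.94, against 7.35 to 8.11. In the double-positive list Ptcra (1.13), Rag1 (0.36) and Cd8b1 (0.25) rose, and Cd4 (0.25) and Rag2 (0.20) did not pass. The sets of columns and the samples in them cannot be told apart here. The offsets between the sets that hold OT-2 peptide, OT-2 and OT-2 deltaP peptide were not measured.

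The genes around the survival group were read on lists that hold only genes the authors had already called changed. Counts on such lists are not those of unselected genes, so shares and medians over all probe sets are no like-for-like reference. Of all probe sets, 3.49% rose in OT-2 peptide against wild-type arrays 1 to 3. In OT-2 peptide against wild-type arrays 1 to 3, 13 of the 16 named genes of the NF-kB list (of 26 listed) rose and 0 fell, with a median of 1.12 on the log2 scale where the median of all probe sets was 0.01. They included Icam1 (1.34 ± 0.09), an adhesion molecule, Tnip2 (1.31 ± 0.11), a partner of the NF-kB inhibitor A20, and the subunits Nfkb2 (1.58 ± 0.15) and Relb (1.56 ± 0.17). Of the early receptor response, 14 of 17 named genes (of 22) rose and 0 fell (median 1.25), among them the nuclear receptors Nr4a1 (2.74 ± 0.14) and Nr4a3 (2.96 ± 0.29), the activation marker Cd69 (3.31 ± 0.20) and the phosphatase Dusp2 (1.5 ± 0.13).

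The pro-apoptotic BCL-2 relatives had 3 named genes of 14 listed: Bcl2l11, which encodes Bim, rose by 1.69 ± 0.10 (limma adjusted p 2.71e-04), and Bbc3 and Bmf did not pass. Of 9 named genes of the Pim and cytokine list (of 20), 4 rose and 1 fell (median 0.54). The receptor chain Il2ra (2.76 ± 0.27), the signal transducers Stat4 (0.73 ± 0.11) and Stat6 (0.65 ± 0.10) rose, and the cytokine-signal inhibitor Socs1 differed by -0.85 ± 0.13. In OT-2 without peptide, against all 6 wild-type arrays, Il2ra already differed by 2.69 and Socs1 by -1.38. Of 7 named death receptor, adaptor and caspase genes (of 28), 0 rose and 1 fell, Tnfrsf1a, a receptor for tumour necrosis factor (-0.58 ± 0.12), with a list median of -0.03. Birc5, the 1 named inhibitor of apoptosis outside the 7 (of 7 listed), differed by -0.66 and did not pass. None of the 6 other anti-apoptotic BCL-2 genes listed was named here.

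**Figure D4:**
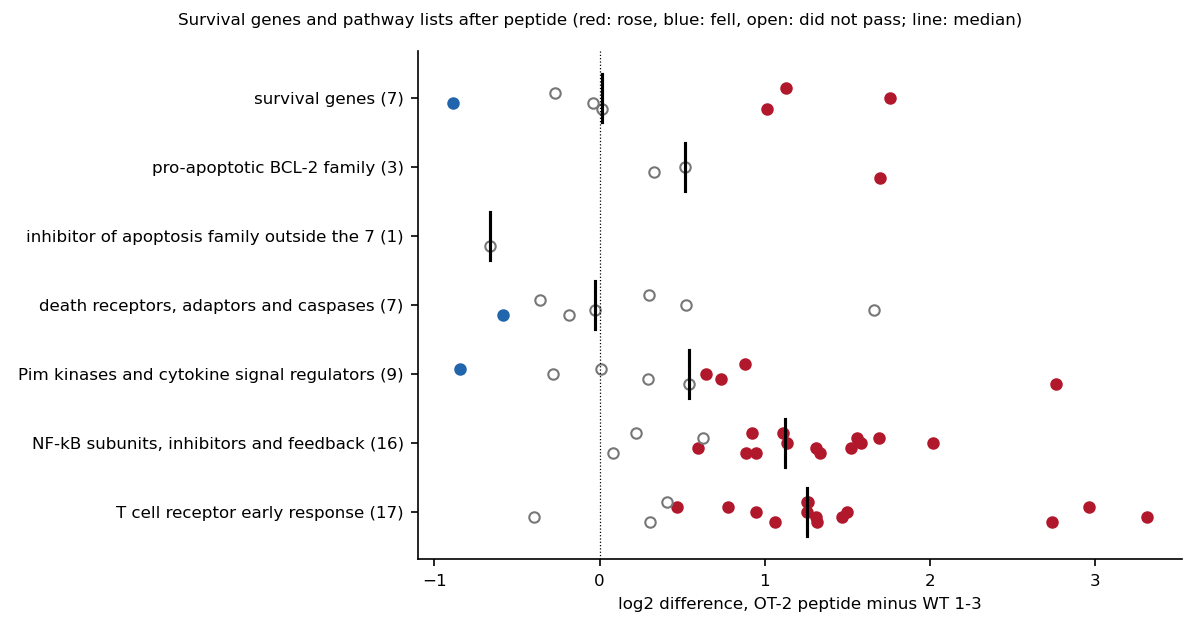
Log2 difference (x axis, OT-2 peptide minus wild-type arrays 1 to 3) of the 7 survival genes and of each named gene of 6 lists (y axis, with the number named), red where it rose, blue where it fell and open where it did not pass; the line is the median. The NF-kB and early receptor response lists lay furthest right, with medians of 1.12 and 1.25, against 0.02 for the survival genes.

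Between OT-2 peptide and OT-2, 15 of the 16 NF-kB genes rose (median 0.98), where 9.35% of all probe sets rose. The NF-kB genes with the smallest p were Icam1 (1.29 ± 0.07), Tnfaip3 (1.06 ± 0.09), which encodes A20, Relb (1.53 ± 0.14) and Nfkb2 (1.53 ± 0.15). Of the early receptor response 11 of 17 rose (median 0.80), and of the pro-apoptotic list Bcl2l11 (1.87 ± 0.07) and Bbc3 (0.45 ± 0.07), the gene of Puma. The Pim and cytokine list had 4 of 9 rises: Jak3 (0.75 ± 0.11), Stat6 (0.46 ± 0.07), Socs1 (0.47 ± 0.10) and Il21r (0.32 ± 0.08), while Il2ra differed by -0.21 and did not pass. Among death receptor genes, Traf3 (0.75 ± 0.12), Tnfrsf4 (1.01 ± 0.20) and Tnfrsf9 (2.03 ± 0.44) rose, 3 of 7. Socs1 in OT-2 peptide thus lay below wild type and above OT-2.

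In OT-2 deltaP peptide against OT-2 peptide, 11 of the 16 NF-kB genes fell and 0 rose (median -0.96, all probe sets -0.10). Of all probe sets 12.9% fell, and the listed genes had been called changed in comparisons that included the OT-2 peptide arrays. Falls included Tnip2 (-1.46 ± 0.11), Icam1 (-0.98 ± 0.10), Nfkb2 (-1.39 ± 0.17) and Tnfaip3 (-0.83 ± 0.11). Of the early receptor response 9 of 17 fell and 1 rose, with falls of Nr4a1 (-3.36 ± 0.28), Nr4a3 (-2.97 ± 0.35), Cd69 (-1.37 ± 0.18) and Dusp5 (-1.01 ± 0.15). Both pro-apoptotic genes that had risen in OT-2 peptide against OT-2 fell, Bcl2l11 (-1.11 ± 0.15) and Bbc3 (-0.80 ± 0.09). From the Pim and cytokine list 3 of 9 fell and 1 rose: Jak3 (-0.80 ± 0.11), Il6ra (-0.55 ± 0.11) and Stat4 (-0.44 ± 0.11) fell and Il21r (0.42 ± 0.08) rose. Of the 7 death receptor genes, Traf1 (-0.78 ± 0.17), Traf3 (-0.62 ± 0.14) and Tnfrsf9 (-1.69 ± 0.41) fell and Tnfrsf1a (0.51 ± 0.11) rose.

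In the HDAC7 knockout none of the 7 genes passed, where 0.802% of all probe sets did in either direction, and 2 had an unadjusted limma p under 0.05. Cflar measured 9.20, 9.22 and 9.04 in the knockout, against 8.79, 8.67 and 8.57 in wild-type arrays 1 to 3. All knockout arrays lay above all wild-type arrays, and the difference was 0.48 ± 0.11 (1.39-fold, limma adjusted p 0.155). In the authors' deposited table Cflar had a fold of 1.39 and a q value of 7.17% for the knockout. Bcl2l1 measured 10.48, 10.10 and 10.19 in the knockout, against 10.80, 10.64 and 11.03 in wild type. Its groups did not overlap either, and its difference was -0.57 ± 0.14 (0.675-fold, limma adjusted p 0.212). Neither passed with any of the 6 arrays omitted. With the replicate number as a block neither passed (limma adjusted p 0.107 for Cflar and 0.125 for Bcl2l1).

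The other 5 genes overlapped between knockout and wild-type arrays 1 to 3. Their differences ran from -0.16 for Birc3 to 0.06 for Pim1, and the widest interval, that of Pim1, went from -0.31 to 0.42. Bcl2 measured 8.03, 7.69 and 7.66 in the knockout, against 8.0, 7.69 and 7.81 in wild type, a difference of -0.04 with an interval of -0.36 to 0.27. Among the lists, the pro-apoptotic Bmf differed by -1.43 ± 0.13 in the knockout (1 fall of 3 named), the cytokine-signal inhibitors Socs1 and Socs3 by -0.97 ± 0.12 and -1.18 ± 0.15, and Stat4 by 1.09 ± 0.12. Of the NF-kB list, the inhibitor Nfkbia differed by -0.88 ± 0.10 and the adaptor Malt1 by 0.89 ± 0.11, the 2 of 16 that passed, and of the death receptor list Tnfrsf1a by -0.81 ± 0.10, 1 of 7. Of the early receptor response, 5 of 17 fell and 1 rose, with Dusp4 (-1.25 ± 0.14), Egr1 (-0.93 ± 0.10), Dusp6 (-1.08 ± 0.13) and Cd5 (1.17 ± 0.14) by smallest p. The double-positive markers averaged 10.04 to 10.19 in the knockout, against 10.59 to 10.79 in wild type, and the B cell pair 6.62 to 7.00, against 7.22 to 7.33. Among the double-positive markers only Ptcra passed (-1.11), and Cd4 (-0.59), Rag1 (-0.50), Rag2 (-0.61) and Cd8b1 (-0.06) did not. Neither Cd79b (-0.60) nor Blk (-0.23) of the B cell pair passed. The mature single-positive markers averaged 7.39 to 8.08, against 7.01 to 7.20, where Ms4a4b rose by 2.59 and the other 3, Ccr7 (0.17), Ccr4 (0.14) and Itgb7 (-0.08), did not pass. Gzma measured 8.66 to 10.21 in the knockout, against 7.35 to 8.11, and did not pass (limma adjusted p 0.187).

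In HDAC7-VP16 cells none of the 7 genes passed, where 1.42% of all probe sets did, and 1 had an unadjusted limma p under 0.05. Bcl2 measured 7.34, 7.73 and 7.38 in VP16, against 7.69, 7.97 and 7.88 in wild-type arrays 4 to 6. The second VP16 array lay above the lowest wild-type array, and the difference was -0.36 ± 0.12 (0.777-fold, limma adjusted p 0.165). Bcl2l1 measured 10.50, 10.50 and 10.44 in VP16, against 10.42, 10.47 and 10.44 in wild type. These arrays were tight, and the interval of the difference ran from -0.11 to 0.18. Cflar measured 8.83, 8.92 and 8.82 in VP16, against 8.86, 8.76 and 8.66 in wild type, a difference of 0.09 with an interval of -0.08 to 0.27. The remaining 4 genes differed by -0.10 for Bcl2a1d to 0.05 for Pim1.

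From the lists, Stat4 rose by 0.74 ± 0.07 and Il2ra by 1.18 ± 0.21 in VP16 (2 of 9), the adaptor Traf1 rose by 0.40 ± 0.07 (1 of 7), and none of the 16 NF-kB or 3 pro-apoptotic genes passed. Of the early receptor response 5 of 17 fell, among them Dusp6 (-1.19 ± 0.08), Dusp4 (-1.28 ± 0.13), Cd69 (-0.89 ± 0.10) and Egr1 (-0.87 ± 0.11). The mature single-positive markers averaged 8.35 to 8.65 in VP16, against 7.77 to 8.11 in wild-type arrays 4 to 6, with rises of Ms4a4b (0.90) and Itgb7 (1.04), and the myeloid pair 7.59 to 7.77, against 6.22 to 6.77. Ccr4 (0.11) and Ccr7 (-0.05) did not pass. Of the myeloid pair, Lyn rose (1.74) and Itgam (0.52) did not pass. The B cell pair averaged 8.0 to 8.06 in VP16, against 7.25 to 7.58, and the double-negative markers, which include Il2ra, 7.63 to 8.03, against 6.94 to 7.38. Blk rose (1.01) and Cd79b (0.30) did not pass. Beside Il2ra, Dtx1 (0.69) rose, and Hes1 (0.51) and Notch3 (0.39) did not pass. Gzma measured 10.22 to 10.39 in VP16, against 8.79 to 8.94, a rise of 1.39 ± 0.08 (limma adjusted p 5.61e-04). The part of these markers in the results was not tested.

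The difference between the VP16 effect and the knockout effect was tested directly, each against its own wild-type arrays. None of the 7 genes passed, where 0.799% of all probe sets did, and 2 had an unadjusted limma p under 0.05. For Bcl2l1 the VP16 effect minus the knockout effect was 0.60 ± 0.16 (interval 0.26 to 0.95, limma adjusted p 0.115). With the replicate number as a block, which pairs the knockout and wild-type arrays, its adjusted p was 0.0439, and without knockout array 1 it was 0.0495. For Cflar the difference was -0.38 ± 0.13 (interval -0.66 to -0.11, limma adjusted p 0.231), and it did not pass under the block either (0.118).

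In OT-2 cells without peptide, none of the 7 genes passed against all 6 wild-type arrays, where 2.31% of all probe sets did, and 3 had an unadjusted limma p under 0.05. Pim1 measured 9.43, 9.51 and 9.57 in OT-2, and ranged from 9.56 to 10.26 in wild type; 1 wild-type array lay within the OT-2 range. The difference was -0.53 ± 0.15 (limma adjusted p 0.0985), and it passed without wild-type array 2 (0.0245). The probe set matched to Birc2 measured 7.25, 7.36 and 7.24 in OT-2, and 7.45 to 8.12 in wild type, a difference of -0.53 ± 0.17 (limma adjusted p 0.131). Bcl2l1 measured 10.13, 10.09 and 10.28 in OT-2, and 10.42 to 11.03 in wild type, a difference of -0.47 ± 0.15 (limma adjusted p 0.133). Both lay below every wild-type array. In the authors' deposited table the folds for positive selection were 0.694 for Pim1, 0.743 for Birc2 and 0.658 for Bcl2l1, with q values of 0.502%, 1.77% and 2.37%. On the log2 scale these were -0.53, -0.43 and -0.60, so those of Birc2 and Bcl2l1 do not match the differences tested here.

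These differences depended on which wild-type arrays served as control, and the set and the receptor cannot be told apart. Against wild-type arrays 4 to 6, Pim1 (-0.68), Birc2 (-0.78) and Bcl2l1 (-0.28) passed, and against wild-type arrays 1 to 3 Bcl2l1 (-0.66) and Bcl2a1d (0.43) passed. Bcl2l1 was the one gene that passed against each set. Against all 6 arrays, Birc2 passed after quantile normalization (-0.52, limma adjusted p 0.0355) and Bcl2l1 after centring (-0.53, limma adjusted p 0.0434). Among the lists, Socs1 differed by -1.38 ± 0.13, Il2ra by 2.69 ± 0.26 and Il6ra by 0.49 ± 0.10 in OT-2 (3 of 9), Traf4 by -0.55 ± 0.11 (1 of 7), and Nr4a3, Dusp4 and Nr4a1 by -0.92 ± 0.11, -0.90 ± 0.15 and -0.83 ± 0.18 (3 of 17), with no call among the NF-kB or pro-apoptotic genes.

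On the 9 arrays of the first set, which share a scale, the order of the mean levels differed among the genes. Bcl2 averaged 8.85 ± 0.21 in OT-2 peptide, 7.80 ± 0.20 in the knockout and 7.84 ± 0.16 in wild type (SD, n = 3 each), and knockout and wild type did not differ beyond their spread. Bcl2a1d averaged 7.42 ± 0.62, 5.58 ± 0.07 and 5.67 ± 0.12 in the same groups, and Birc3 8.88 ± 0.08, 7.59 ± 0.16 and 7.75 ± 0.17, again with knockout and wild type overlapping. Bcl2l1 averaged 9.94 ± 0.34 in OT-2 peptide and 10.26 ± 0.20 in the knockout, which overlapped, and 10.82 ± 0.19 in wild type, the highest. For Cflar, the knockout was highest at 9.15 ± 0.10, with OT-2 peptide at 8.69 ± 0.09 and wild type at 8.68 ± 0.11, which overlapped. Birc2 averaged 7.29 ± 0.10 in OT-2 peptide, 7.49 ± 0.17 in the knockout and 7.56 ± 0.15 in wild type, and Pim1 9.85 ± 0.22, 9.95 ± 0.16 and 9.89 ± 0.29, with no neighbours apart beyond their spread except that Birc2 was lower on every OT-2 peptide array than in wild type. In the second set, no gene's VP16 and wild-type arrays lay apart without overlap.

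The named genes whose pattern over the same 9 arrays was most like each member are given as a description. The arrays share a set of columns, and single groups can carry most of the spread. For Bcl2, Bcl2a1d and Birc3 these were the peptide arrays, and for Cflar the knockout arrays. The Pim1 group means ran only from 9.85 to 9.95, so its spread lay mainly within groups. Closest to Bcl2 were the NF-kB subunit Relb (r = 0.981) and the receptor chain Il2ra (0.979), and closest to Birc3 were Cd69 (0.989) and the phosphatase Ptpn6 (0.983). Bcl2a1d went with Lcp1 (0.985), an actin-bundling protein, and Nr4a3 (0.985). Bcl2l1 went with the transcription factor Tcf3 (0.973) and Nyap1 (0.972), and Cflar with Rapgef4 (0.970) and Rfc1 (0.965). The closest genes to Birc2 were Mrpl22 (0.930) and Ddx39a (0.928). Pim1 had the loosest match, Snapin (0.886), followed by Retreg2 (0.804).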

How the data were processed

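RNA of sorted double-positive thymocytes was measured on 21 arrays. The deposited values are log2 RMA signals per probe set, made by the authors with RMA (and Affymetrix Expression Console for the OT-2 deltaP arrays), per the submitters' processing notes, in normalization groups that follow the comparisons, per the design text. The authors' tables hold fold changes (a ratio), SAM d scores and q values in percent, per the file headers and the readme. For these tools, versions are not stated by the sources used here.

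The table had 35556 rows; 6612 control rows and 23 second probe sets of a named gene (the highest mean was used) were left out, and 28921 were tested. Gene names came from the authors' tables alone. With limma 3.58.1 under R 4.3.3, lmFit and eBayes were run for each comparison on the arrays compared, with Benjamini-Hochberg adjustment over all probe sets and a threshold of 0.05 on the adjusted p. The script was checked on simulated arrays. The number of arrays limits the precision. Figures were drawn with matplotlib 3.10.9 in python 3.11.15, with pandas 2.3.3, numpy 2.4.6 and, for sequences, biopython 1.88. Motifs were searched in the 250 bases before each RefSeq start.

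Groups follow the sample titles. Deviations from the group mean correlated between same-numbered knockout and wild-type arrays (0.423, 0.261 and 0.250). The numbers may therefore pair these arrays, and the labels give no pairing. The main fits leave any pairing out, and their p-values measure the spread between samples called biological replicates. A replicate block was run as an alternative. The members and lists were chosen with earlier results of these data known. A few listed genes are not reported here and were left out of their lists' counts and means. Named were all 7 genes, up to 4 genes by smallest adjusted p from each list per comparison, and 2 like genes per member. Alternatives were quantile normalization, median centring, leaving out dim probe sets, eBayes with trend, a replicate block, other wild-type controls and leaving out each array. The folds and q values of the authors' deposited tables were set beside these values.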

Additional observations from a re-analysis of the deposited data

Results flagged for a closer look

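Pim1 in wild type had 1 array that stood apart from the other 5. Wild-type array 2 measured 9.56, below the other wild-type arrays at 10.01 to 10.26, and its gap to the nearest was 0.639 of the whole range of the 6 arrays. This is above Dixon's critical value for 6 samples, and chance alone marks about 1 in 20 groups. The 6 wild-type arrays span 2 sets of columns that differ in scale. Without that array, Pim1 passed in OT-2 against wild type (-0.63, limma adjusted p 0.0245).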

How the results depend on the processing

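Over 58 results, 682 alternative values were computed, of which 585 kept their direction and side of the threshold, 22 came to pass, 30 no longer passed and 45 changed sign. Counts of genes called changed as follows. For OT-2 against wild type the count of 0 became 1 after quantile normalization, 1 after centring, 2 with the replicate block, 2 with wild-type arrays 1 to 3 only and 3 with wild-type arrays 4 to 6 only. For OT-2 deltaP peptide against OT-2 the count of 1 became 3 after quantile normalization, 3 after centring and 2 with dim probe sets left out. For the VP16 minus knockout effect it became 1 with the replicate block. For OT-2 peptide against OT-2 the count of 3 became 4 after quantile normalization. For OT-2 deltaP peptide against OT-2 peptide the 3 falls became 2 with dim probe sets left out, and 1 rise and 2 falls after centring. Between the wild-type sets the count of 4 became 3 after quantile normalization and 3 with dim probe sets left out, and its 3 rises and 1 fall became 4 rises after centring. Leaving out 1 array gave counts of 0 to 0 for the knockout, 0 to 0 for VP16, 0 to 1 for OT-2, 1 to 4 and 2 to 4 for OT-2 peptide against OT-2 and wild type, 1 to 2 and 0 to 1 for OT-2 deltaP peptide against OT-2 peptide and OT-2, 3 to 4 between wild-type sets and 0 to 1 for the difference of effects.

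Signs turned as follows. After centring, the difference was -0.021 for Bcl2a1d in OT-2 against wild type, -0.050 for Birc2 in OT-2 peptide against OT-2 and -0.021 for Cflar in OT-2 peptide against wild type. After quantile normalization it was -0.207 for Cflar, -0.163 for Bcl2 and -0.122 for Pim1 between the wild-type sets. With all 6 wild-type arrays as control it was -0.155 for Bcl2l1, 0.212 for Birc2 and 0.285 for Bcl2a1d in VP16, and -0.089 for Pim1 in the knockout. With wild-type arrays 4 to 6 only it was -0.156 for Birc3 and -0.340 for Bcl2a1d in OT-2. Leaving out 1 array gave ranges across 0 for Bcl2 (-0.157 to 0.041), Pim1 (-0.105 to 0.161) and Birc2 (-0.118 to 0.030) in the knockout, Pim1 (-0.010 to 0.093), Birc3 (-0.035 to 0.128) and Bcl2a1d (-0.204 to 0.011) in VP16, Cflar (-0.142 to 0.014) and Bcl2a1d (-0.076 to 0.165) in OT-2, Cflar (-0.039 to 0.116) and Birc2 (-0.038 to 0.057) in OT-2 peptide against OT-2, Cflar (-0.034 to 0.074) and Pim1 (-0.202 to 0.075) against wild type, Cflar (-0.039 to 0.106) and Bcl2l1 (-0.056 to 0.179) in OT-2 deltaP peptide against OT-2 peptide and OT-2, and Bcl2 (-0.058 to 0.095) between the wild-type sets. None of these values passed the test, and the cause of each change was not tested.

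The replicate block moved no other count of these genes. In OT-2 against wild type it compares numbers 1 to 3 only, and it called 6568 probe sets where the fit without it called 667; for the difference of effects the counts were 633 and 231. Outside the knockout, same-numbered arrays did not all correlate best with their own number (-0.110 to 0.209). Quantile normalization gave 846 calls against 4348 as deposited for OT-2 deltaP peptide against OT-2 peptide, 2948 against 5489 against OT-2, and 1452 against 667 for OT-2 against wild type. With 3 arrays a group, the number of arrays limits what can pass. The alternative of the lowest-mean probe set was not run, since each gene has 1 probe set.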
